A study of Homo sapiens with 54 samples.

Results

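Interferon-stimulated genes are the set that cells switch on when interferon binds its receptors, and 34 of them were listed for description here by symbol. They were looked up by gene name or Entrez identifier in the deposited expression table, where 33 of the 34 were found among 19225 genes and other transcripts. PSMB8 was not analysed here, and DDX58 was found under its current symbol, RIGI. By role, the 33 genes were 5 signalling and transcription factors, 6 RNA sensors and RNA-modifying enzymes, 17 effectors and 5 antigen presentation genes.

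The study sequenced total RNA from LNCaP, C4-2 and 22Rv1 cells, 3 human prostate cancer cell lines, in 54 libraries. LNCaP grows in response to androgen and was taken from a metastatic lymph node. C4-2 was derived from LNCaP by passage in castrated mice, and 22Rv1 from a xenograft that had relapsed after castration. Each line was given ethanol vehicle, 100 nM 17-beta-estradiol (E2, the natural oestrogen), 100 nM OSU-ERb-12 (OSU, an oestrogen receptor beta agonist), 1 µM enzalutamide (Enza, an androgen receptor antagonist), E2 with Enza, or OSU with Enza. Treatment lasted 12 h in medium with serum, all cells carry the genotype label WT, and each of the 18 groups has 3 libraries that the labels call biological triplicates. No group received interferon, and all 3 lines are cancer lines grown alone, so no immune cell was part of the design. The titles of the OSU groups say only WT, and the treatment label names OSU-ERb-12 for the groups without Enza. For the groups called OSU+Enza here the treatment label also says only WT with a dose of 100 nM, so that they received OSU-ERb-12 is a reading of the shared title and not stated by their own labels.

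Depth ran from 32819568 to 52417050 reads in genes per library. Levels are given as CPM, reads per 1000000 of the library size the authors used for scaling, and 1 read was worth 0.0204 to 0.0323 CPM. 8 luminal prostate markers summed to 1091 to 6037 CPM per library. The leukocyte markers CD14 and ITGAM were at 0 to 0.471 and 0 to 0.410 CPM over all 54 libraries. The library C4-2 vehicle 1 carries a 22Rv1 cell line tag but a C4-2 title. Its level of KLK3, a luminal marker outside the listed interferon-stimulated genes, was 2165 CPM. The other C4-2 vehicle libraries had 2085 and 2130 CPM of KLK3, the LNCaP ones 1080 to 1153 and the 22Rv1 ones 8.28 to 11.4. The library was therefore kept as C4-2. Its OAS1 level of 2.22 CPM also lay among the C4-2 vehicle libraries (1.98 and 2.83 CPM) and above the 22Rv1 ones (0.0428 to 0.173 CPM). OAS1 is itself compared between lines below, so it is not independent evidence of the line. This library and 3 others (C4-2 E2 3, 22Rv1 vehicle 3 and 22Rv1 OSU+Enza 2) stood apart in earlier work on these data, and they are left out in 1 of the alternatives.

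As background, type I and type III interferons signal through JAK1 and TYK2 to a complex with STAT2 and IRF9 that binds the interferon-stimulated response element (ISRE) in promoters. Interferon gamma signals through JAK1 and JAK2 to gamma-activated sites (GAS), and IRF1 is a classical target of that arm. Many of these genes also have a basal level without added interferon, to which unphosphorylated STAT and IRF proteins contribute.

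Promoter sequences of RefSeq (GRCh38.p14, 250 bases before to 50 after the start) were found for 29 of the 33 genes. The ISRE core, a pair of GAAA repeats with 2 bases between them, was searched on both strands, and 18 of 29 genes (62.1%) had it in a window, against 4.38% of all 27305 genes with a window. The core overlaps itself in repeats of GAAA, so that adjacent matches can share bases. A GAS core, TTCNNNGAA, was in 8 of 29 (27.6%) against 9.38% of all genes. Full palindromes of the androgen response element and of the oestrogen response element were in the windows of 0 of the 29 genes and of 0.0147% and 0.0733% of all genes, which says only that these exact palindromes are not there. The sites below are examples, and not every gene or site with a core is printed. They are written 5′ to 3′ on the strand of the gene and have the matched bases in capitals.
ISG15, chr1:1013377-1013406, plus strand: gcctcggGAAAGGGAAACCGAAActgaagc
IFI6, chr1:27672266-27672295, minus strand: gcagagtgcaGAAATAGAAActccgacagg
IFIT1, chr10:89392503-89392532, plus strand: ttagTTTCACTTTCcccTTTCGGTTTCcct
B2M, chr15:44711366-44711395, plus strand: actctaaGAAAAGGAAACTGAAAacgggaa
TAP1, chr6:32853816-32853845, minus strand: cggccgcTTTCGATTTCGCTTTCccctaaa
IFI44, chr1:78649761-78649790, plus strand: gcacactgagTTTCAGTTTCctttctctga
DTX3L, chr3:122564322-122564351, plus strand: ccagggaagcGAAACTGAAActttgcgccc
PARP9, chr3:122564322-122564351, minus strand: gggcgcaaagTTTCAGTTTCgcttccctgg
PARP9 and DTX3L are divergent neighbours. The only ISRE core found for either is the same stretch of chromosome 3, 122564332 to 122564341, read from opposite strands. For PARP9 it was found only in the window 122564251 to 122564550, which lies inside the annotated gene (122527924 to 122564784). For IRF1 the 150 bases before the start hold a GAS core and no ISRE core, at chr5:132490774-132490923 on the minus strand, again with the match in capitals.
IRF1: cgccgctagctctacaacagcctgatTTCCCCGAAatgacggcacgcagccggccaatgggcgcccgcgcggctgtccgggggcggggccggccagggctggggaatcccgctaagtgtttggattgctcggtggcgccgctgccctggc

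The genes ranged from 0 reads in some libraries (OAS2) to 526.1 CPM (ADAR). Of the 33, 10 were at 10 CPM or more in every one of the 18 groups and 3 (OAS2, IFI27 and PSMB9) were under 1 CPM in all 18. A further 9 were under 1 CPM in some groups. OAS2, a sensor of double-stranded RNA that makes 2-5A, had the lowest ceiling in reads of the 33, at 0 to 12 reads per library (0 to 0.311 CPM), and 14 of 54 libraries had 3 reads or fewer. IFI27, an interferon-inducible mitochondrial protein, ranged from 0 to 22 reads (0 to 0.596 CPM). PSMB9, an immunoproteasome subunit, reached at most 1.34 CPM. At 3 reads, the level taken here as the floor, the corresponding value is 0.0611 to 0.0968 CPM depending on the library.

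Which genes sat at the floor depended on the line. In 22Rv1, 9 genes were under 1 CPM in every group (OAS1, OAS2, IFI6, IFI27, IFI44, IFIT1, IFIT2, IFIT3 and PSMB9), and 6 had at least 1 library at 3 reads or fewer. C4-2 had 8 under 1 CPM in every group (OAS2, IFI27, IFI44, IFI44L, IFIT1, IFIT2, IFIT3 and PSMB9), and 3 with a library at the floor. LNCaP had 4 (OAS2, IFI27, IFI44L and PSMB9), and 1, OAS2, with a library at the floor. IFI44L was at 0 reads in 11 of the 18 C4-2 libraries, while 22Rv1 had 14 to 106 reads and LNCaP 4 to 33. IFIT3 had a median of 3 reads over the 18 libraries of 22Rv1 against 92 in LNCaP. Changes of these genes were therefore mostly not testable within 22Rv1 and C4-2: 30 of the 33 passed the filter of 1 CPM in 3 libraries in LNCaP, 25 in C4-2 and 24 in 22Rv1.

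**Figure D1:**
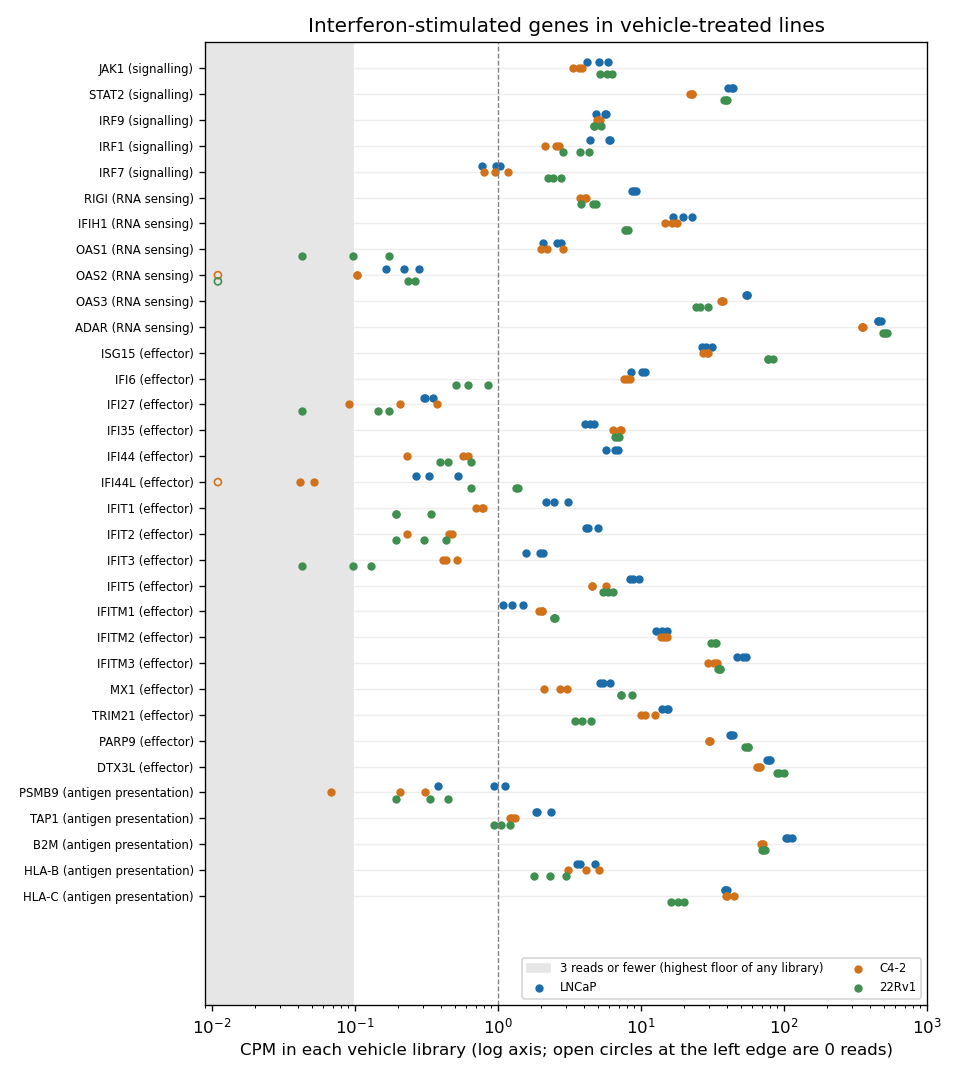
Level of each of the 33 genes in the 9 vehicle libraries, as CPM on a log axis, with 1 point per library coloured by line; the grey band marks 3 reads or fewer and the dashed line 1 CPM. The IFIT genes and IFI44 stand apart with LNCaP to the right, OAS1 and IFI6 with 22Rv1 to the left, and ISG15 and IFITM2 with 22Rv1 to the right.

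Without treatment, LNCaP had the highest mean of the 3 lines for 20 of the 33 genes, 22Rv1 for 10 and C4-2 for 3. C4-2 had the lowest mean for 16 genes, 22Rv1 for 13 and LNCaP for 4. Both counts take the means whatever their overlap, also for genes with few reads such as OAS2 and IFI27. The order of the lines was not counted over all genes, so whether these counts are unusual cannot be told. All lines were compared in 1 limma fit of all 54 libraries on log2(CPM + 0.5), where 31 of the 33 genes passed the filter (not IFI27 or OAS2). A gene is called at a Benjamini-Hochberg adjusted p under 0.05 over all 16026 genes. IFI44, IFIT1, IFIT2 and IFIT3 reached 1 CPM in LNCaP libraries only, and IFI44L in 22Rv1 libraries only. PSMB9 was under 1 CPM in 50 of the 54 libraries. Genes that passed through the line where they are high were in part selected for a difference from it. The counts below include them and are not evidence apart from that selection. Between C4-2 and LNCaP, 23 of 31 were called, 2 higher and 21 lower in C4-2. The background is high, since 66.7% of all genes were called in that comparison, 34% higher and 32.7% lower. The median log2 difference of the 31 was -0.50, against 0 over all genes. Between 22Rv1 and LNCaP, 29 of 31 were called, 10 higher and 19 lower in 22Rv1 (83.3% of all genes called, 40.4% higher and 43% lower), with a median of -0.57 against -0.03. Between 22Rv1 and C4-2, 22 were called, 13 higher and 9 lower in 22Rv1 (84.7% of all genes, 41.5% higher and 43.3% lower), with a median of 0.13 against -0.02. That last split moved with the scaling, to 17 higher of 26 called with scaling to total reads, where the median of all genes was 0.22, and to 12 of 25 with cyclic loess. Scaling to total reads also moved the median of all genes between 22Rv1 and LNCaP, to 0.09. In bulk libraries, fewer expressing cells and less RNA per cell cannot be told apart. These comparisons share vehicle libraries pairwise, so they are not independent of each other.

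Among the signalling genes the clearest difference was in IRF1 and STAT2. IRF1, a transcription factor of the interferon gamma arm, had 4.39, 6.04 and 5.94 CPM in LNCaP, 2.15, 2.56 and 2.68 in C4-2, and 4.35, 2.84 and 3.77 in 22Rv1. All 3 C4-2 libraries lay below all others. The log2 difference of IRF1 in C4-2 from LNCaP was -0.999 ± 0.13 (SE). STAT2, a transcription factor of the type I interferon arm, had 43.9, 40.7 and 43.2 CPM in LNCaP, 22.6, 21.9 and 22.6 in C4-2, and 37.8, 39.6 and 40.1 in 22Rv1. Again C4-2 was lowest without overlap, by a log2 difference of -0.91 ± 0.06 from LNCaP. The difference of STAT2 between 22Rv1 and LNCaP was -0.12 ± 0.06 (limma, adjusted p = 0.0488), and its sign turned with scaling to total reads (0.00308). Without any 1 of the libraries LNCaP vehicle 1 or 3 or 22Rv1 vehicle 1 or 2 the call was lost too. IRF7, the amplifier of type I interferon genes, was higher in 22Rv1, at 2.76, 2.23 and 2.44 CPM, than in LNCaP at 1.04, 0.968 and 0.770 CPM, a log2 difference of 1.07 ± 0.16. C4-2 had 0.950, 1.18 and 0.799 CPM, which overlapped LNCaP. JAK1, the kinase bound to the receptors, had 3.67, 3.37 and 3.89 CPM in C4-2 vehicle and 3.37 to 6.32 over all 54 libraries. It was lower in C4-2 than in LNCaP by a log2 difference of -0.42 ± 0.14. That call was lost with cyclic loess and without LNCaP vehicle 1. JAK1 was also called higher in 22Rv1 than in C4-2, by 0.59, and leaving out any 1 of the 6 vehicle libraries kept that call. IRF9, the DNA-binding part of the complex with STAT2, was not called in any pair of lines, at 4.68 to 5.68 CPM over all 9 vehicle libraries.

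Of the 5 RNA sensing genes tested, 4 were called lower in 22Rv1 than in LNCaP and 1, ADAR, higher. OAS1, which makes 2-5A to activate RNase L, had 2.07, 2.78 and 2.60 CPM in LNCaP (100 to 118 reads), 2.22, 1.98 and 2.83 in C4-2, and 0.0962, 0.173 and 0.0428 in 22Rv1, which is 4, 8 and 2 reads. The 22Rv1 libraries thus lay at the floor or just above it, and the log2 difference from LNCaP of -2.30 ± 0.17 on the log2(CPM + 0.5) scale understates the ratio of CPM (-3.70 with a pseudocount of 0.1 and -4.59 with voom weights). OAS3, its longer relative, fell in steps over the lines, from 55.6, 54.6 and 55.5 CPM in LNCaP to 36.4, 37.8 and 36.8 in C4-2 and 26.0, 24.2 and 29.3 in 22Rv1, with no overlap between lines. RIGI, a helicase that senses short RNA with a 5′ triphosphate, had 9.30, 8.91 and 8.64 CPM in LNCaP, 4.05, 4.13 and 3.74 in C4-2, and 4.86, 4.64 and 3.83 in 22Rv1. LNCaP was above both others without overlap, by log2 differences of -1.08 ± 0.10 for C4-2 and -0.94 for 22Rv1, and the pair of lower lines overlapped. IFIH1 (MDA5), the sensor of long double-stranded RNA, had 16.9, 22.6 and 19.6 CPM in LNCaP, 16.5, 14.8 and 17.8 in C4-2, and 7.74, 7.82 and 8.15 in 22Rv1. The 22Rv1 libraries were the lowest, by -1.25 from LNCaP. For IFIH1 the difference between C4-2 and LNCaP (-0.25 ± 0.08) was lost with cyclic loess and without LNCaP vehicle 2 or C4-2 vehicle 2. ADAR, the enzyme that edits adenosine in double-stranded RNA and keeps it from the sensors, was higher in 22Rv1 and lower in C4-2: 479, 456 and 457 CPM in LNCaP, 349, 357 and 351 in C4-2, and 496, 506 and 526 in 22Rv1. Those of LNCaP lay between the other lines without overlap, at log2 differences of -0.40 ± 0.03 for C4-2 and 0.13 ± 0.03 for 22Rv1 (ADAR with scaling to total reads 0.26, with cyclic loess 0.25).

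The effectors did not share 1 order of the lines: of the 16 tested, 8 were called higher and 8 lower in 22Rv1 than in LNCaP, and 2 higher and 11 lower in C4-2 than in LNCaP. The genes IFIT1, IFIT2, IFIT3 and IFI44 were highest in LNCaP, the only line in which they passed the filter. IFIT1, IFIT2 and IFIT3 form an RNA-binding complex. IFIT2 had 4.27, 4.15 and 5.01 CPM in LNCaP, 0.453, 0.475 and 0.232 in C4-2, and 0.433, 0.303 and 0.193 in 22Rv1. IFIT1 had 2.47, 3.08 and 2.16 CPM in LNCaP, 0.792, 0.703 and 0.773 in C4-2, and 0.192, 0.195 and 0.342 in 22Rv1. IFIT3 had 1.97, 2.06 and 1.56 CPM in LNCaP, 0.430, 0.413 and 0.515 in C4-2, and 0.0962, 0.130 and 0.0428 in 22Rv1. All of the LNCaP libraries lay above all others for these 3 genes, and for IFIT1 and IFIT3 the C4-2 libraries lay above the 22Rv1 ones. In log2 differences from LNCaP, the values were -2.50 ± 0.16 in C4-2 and -2.63 in 22Rv1 for IFIT2, -1.28 ± 0.18 and -2.04 for IFIT1, and -1.31 ± 0.13 and -2.00 for IFIT3. With voom weights, which add less to low reads, the 22Rv1 values were -3.35 for IFIT1 and -4.32 for IFIT3. IFI44, a cytoplasmic antiviral protein, was also highest in LNCaP, with 6.55, 6.93 and 5.65 CPM against 0.566, 0.620 and 0.232 in C4-2 and 0.649, 0.390 and 0.449 in 22Rv1. C4-2 and 22Rv1 overlapped for IFI44, and each lay below LNCaP, by -2.84 ± 0.16 and -2.79. IFIT5 was less unequal, with 8.45 to 9.73 CPM in LNCaP, 4.55 to 5.67 in C4-2 and 5.42 to 6.36 in 22Rv1. The 22Rv1 against C4-2 difference of IFIT5 (0.24) was lost with cyclic loess, without the 4 libraries that stood apart, and without 22Rv1 vehicle 3, C4-2 vehicle 1 or C4-2 vehicle 2.

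A second group of effectors was set apart by 22Rv1. ISG15, the ubiquitin-like modifier (chr1:1013497-1014540), had 26.9, 28.5 and 31.3 CPM in LNCaP, 27.2, 29.6 and 29.0 in C4-2, and 76.9, 77.8 and 84.3 in 22Rv1. LNCaP and C4-2 overlapped, and 22Rv1 was above both by log2 differences of 1.45 ± 0.06 and 1.46. IFI6, a protein of mitochondria and endoplasmic reticulum, went the other way: 8.51, 10.2 and 10.7 CPM in LNCaP and 7.60, 8.04 and 8.42 in C4-2, against 0.505, 0.845 and 0.621 in 22Rv1. The log2 difference of IFI6 in 22Rv1 was -3.16 ± 0.15 from LNCaP, the widest of the 31 tested genes on the log2(CPM + 0.5) scale. So in the same 3 libraries of 22Rv1, ISG15 and IFI6, both with ISRE cores in the windows printed above, stood at opposite ends of the 3 lines. MX1, an antiviral GTPase, had 5.16, 6.09 and 5.41 CPM in LNCaP, 3.05, 2.71 and 2.09 in C4-2, and 7.31, 8.61 and 7.25 in 22Rv1, with no overlap. TRIM21, the cytosolic antibody receptor, had 15.6, 14.1 and 15.2 CPM in LNCaP, 9.93, 10.6 and 12.6 in C4-2 and 3.85, 4.51 and 3.47 in 22Rv1. It fell from line to line without overlap, to -1.81 in 22Rv1 from LNCaP. IFI35 was lowest in LNCaP, at 4.06 to 4.66 CPM against 6.39 to 7.22 in C4-2 and 6.55 to 6.98 in 22Rv1 (log2 difference 0.61 ± 0.10 for C4-2).

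The membrane proteins of the IFITM family, which block virus entry, did not share an order. IFITM2 had 12.8, 13.96 and 15.2 CPM in LNCaP, 13.8, 15.2 and 14.5 in C4-2, and 30.8, 33.1 and 33.4 in 22Rv1. IFITM3 had 46.8, 51.8 and 54.7 CPM in LNCaP, 33.98, 32.6 and 29.6 in C4-2, and 34.4, 35.4 and 35.7 in 22Rv1. IFITM2 was therefore highest in 22Rv1 and IFITM3 in LNCaP, at log2 differences from LNCaP of 1.19 ± 0.08 and -0.53 in 22Rv1. IFITM1 was low, at 1.08 to 1.503 CPM in LNCaP, 1.93 to 2.04 in C4-2 and 2.47 to 2.50 in 22Rv1. The 3 genes are near-identical neighbours on chromosome 11, so how reads were divided among them is uncertain. For IFITM3 the call between 22Rv1 and C4-2 (0.13) was lost with the replicate number as a block, and without 22Rv1 vehicle 2 or 3 or C4-2 vehicle 2 or 3.

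PARP9 and DTX3L form a complex of a mono-ADP-ribosyltransferase and a ubiquitin ligase that acts on histones. PARP9 had 43.7, 41.8 and 42.8 CPM in LNCaP, 30, 30.5 and 29.8 in C4-2, and 53.8, 55.9 and 55.9 in 22Rv1. DTX3L had 78.7, 79.6 and 76.0 CPM in LNCaP, 66.6, 67.6 and 64.6 in C4-2, and 89.3, 91.9 and 99.5 in 22Rv1. Both were ordered C4-2, LNCaP, 22Rv1 with no overlap. The 2 genes overlap by 447 bases on opposite strands, and whether reads were counted by strand is not given in the sources used here, so a part of their reads may be shared.

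Antigen presentation genes were higher in LNCaP for B2M and lower in 22Rv1 for both class I heavy chains. B2M, the light chain of every HLA class I molecule (chr15:44711517-44718145), had 103, 114 and 107 CPM in LNCaP, 71.6, 70.2 and 68.7 in C4-2, and 70.1, 71.2 and 73.8 in 22Rv1. LNCaP lay above both, by log2 differences of -0.62 ± 0.05 and -0.59 ± 0.05, and the other lines overlapped. HLA-C had 38.8, 38.9 and 39.8 CPM in LNCaP, 45.0, 40.2 and 39.5 in C4-2 and 16.1, 18.3 and 20.1 in 22Rv1, a log2 difference of -1.09 ± 0.09 in 22Rv1 from LNCaP. HLA-B was low in all lines, at 3.59 to 4.76 CPM in LNCaP, 3.10 to 5.07 in C4-2 and 1.78 to 3.00 in 22Rv1. HLA-B and HLA-C share long stretches of sequence and their reads may be split unevenly. TAP1, which loads peptides into the endoplasmic reticulum, had 1.86 to 2.33 CPM in LNCaP, 1.21 to 1.31 in C4-2 and 0.938 to 1.21 in 22Rv1. PSMB9, which starts 487 bases from TAP1, was under 1 CPM in all but 1 vehicle library, which was in LNCaP at 1.12. Its call between 22Rv1 and LNCaP (-0.63) was lost without LNCaP vehicle 1 or 3 or 22Rv1 vehicle 2. Levels were also divided by exon length, taken over all exons of all annotated transcripts of a gene. On that scale the highest means among these genes in LNCaP vehicle were ADAR (37.9 CPM per kb), B2M (34.6) and ISG15 (33.3). ISG15 led in 22Rv1 at 91.9 CPM per kb, against 41.6 for ADAR and 23.0 for B2M. The lengths were 12242 bases for ADAR, 3121 for B2M and 867 for ISG15. Such a length can exceed that of the transcript in the cells, by unlike amounts between genes, so this order depends on the annotation.

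**Figure D2:**
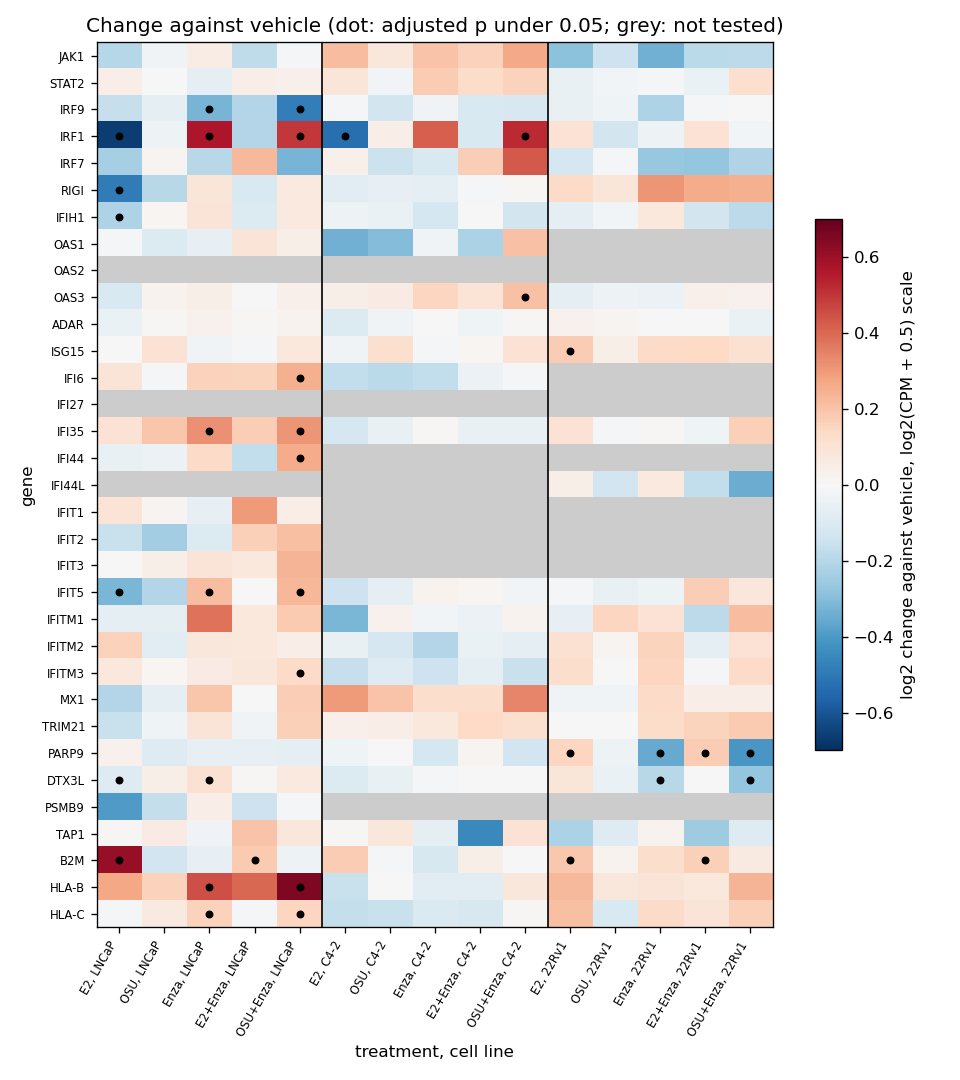
Log2 change against vehicle on the log2(CPM + 0.5) scale for each of the 33 genes (rows) in each of 15 comparisons (columns, by line), with black dots where the adjusted p was under 0.05 and grey where the gene was not tested. The darkest cells are those of IRF1, HLA-B and B2M in LNCaP, and the OSU columns hold no dot.

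The called treatment changes of these genes were all less than 2-fold. Each line was fitted alone (18 libraries) and each treatment set against that line's vehicle, which makes comparisons within a line share their vehicle libraries. Of 395 tests, 35 were called, on 16 genes, and 15 tested genes were never called. These pooled counts were not taken over all genes, so whether they are high or low cannot be told. Shares of all genes are given for each comparison. The largest called change was 0.66 on the log2 scale and 0 reached 1. LNCaP had 6 calls of 30 with E2, where 24.9% of all genes were called, 7 with Enza (20.4%), 1 with E2+Enza (7.42%) and 9 with OSU+Enza (29.7%). In LNCaP, E2 raised 1 and lowered 5 (13.3% and 11.6% of all genes), Enza raised 6 and lowered 1 (9.79% and 10.6%), and OSU+Enza raised 8 and lowered 1 (14.5% and 15.2%). With cyclic loess, 2 of 7 calls with E2 in LNCaP were higher. C4-2 had 1 of 25 with E2 (5.82%), 0 with Enza (8.44%), 0 with E2+Enza (0.0784%) and 2 with OSU+Enza (7.39%). 22Rv1 had 3 of 24 with E2, all higher (27.7% of all genes, 17.1% higher and 10.6% lower), 2 with Enza (0.659%), 2 with E2+Enza (13.8%) and 2 with OSU+Enza (1.99%). Without 1 library the LNCaP counts fell as far as 2 with Enza (without vehicle 1, Enza 1 or Enza 3) and 3 with OSU+Enza (without vehicle 1). Without the 4 libraries that stood apart, E2 called 0 and OSU+Enza 1 in C4-2, and E2 called 5 and Enza 1 in 22Rv1. Read against the shares of all genes called in either direction, the counts with Enza and OSU+Enza in 22Rv1, which are PARP9 and DTX3L in both, are above the background, and the other totals are near or below it. PARP9 and DTX3L are overlapping neighbours whose reads may be shared in part, so they may not count as separate genes here. The DTX3L call with Enza was also lost without certain single libraries. By direction, the genes raised by Enza and by OSU+Enza in LNCaP are above the share of all genes raised, with the dependence on single libraries just given. The median changes were also close to those of all genes: -0.05 against -0.01 for E2 in LNCaP, 0.07 against 0.00 for Enza, 0.07 against 0.00 for OSU+Enza, and in 22Rv1 0.04 against 0.03 for E2, 0.05 against 0.02 for Enza and 0.05 against 0.01 for OSU+Enza. In C4-2 they were -0.05 against -0.03 for E2 and 0.01 against -0.01 for OSU+Enza. For the 0 counts in C4-2, 5 genes with Enza and 2 with E2+Enza had an unadjusted limma p under 0.05, and other settings called up to 3 with Enza.

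OSU alone gave 0 calls by limma among these genes in each line, where 0.014% of all genes were called in LNCaP and 0% in C4-2 and in 22Rv1. Unadjusted p was under 0.05 for 4 genes in LNCaP, 1 in C4-2 and 0 in 22Rv1. The 4 in LNCaP were B2M, IFIT5, IFIT2 and RIGI, each with a lower mean than vehicle. B2M had 98.0, 99.2 and 97.5 CPM with OSU against 103, 114 and 107 with vehicle, a log2 difference of -0.13 ± 0.03 (adjusted p = 0.378), without overlap. A gene that misses the threshold is not shown to be unaffected.

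**Figure D3:**
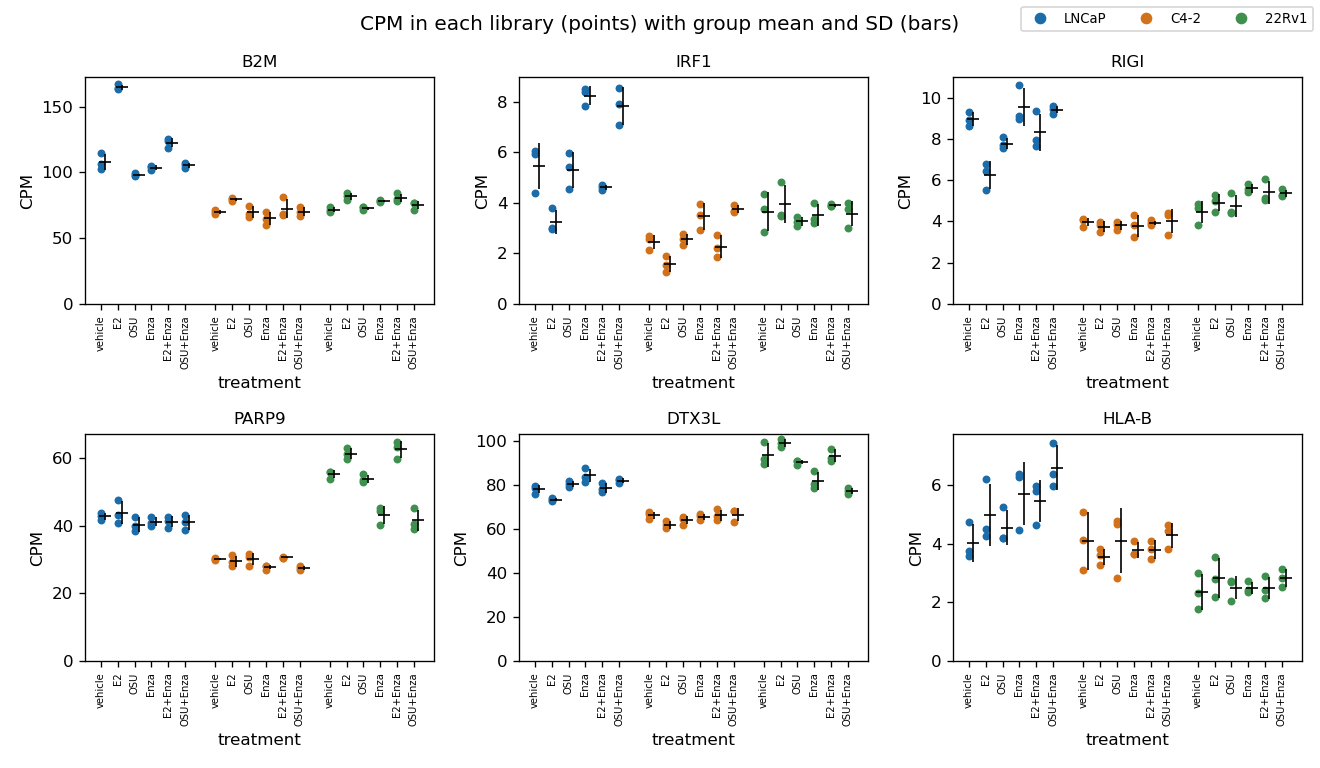
CPM in each library of all 18 groups for 6 genes (1 panel each), with points coloured by line and black bars for the group mean and SD. B2M is raised in LNCaP E2 (163 to 167 CPM), IRF1 is lowest with E2 and highest with Enza in LNCaP, and in 22Rv1 the PARP9 points with Enza and OSU+Enza (39.1 to 45.2 CPM) lie below those with vehicle (53.8 to 55.9).

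IRF1 (chr5:132481609-132490773) was called in LNCaP and C4-2, and in LNCaP it moved in opposite directions with E2 and with Enza. Against 4.39, 6.04 and 5.94 CPM in LNCaP vehicle, E2 gave 3.79, 2.99 and 2.96, and Enza gave 7.82, 8.37 and 8.53. OSU+Enza gave 7.07, 7.92 and 8.57 CPM, E2+Enza 4.72, 4.502 and 4.62, and OSU 5.41, 5.96 and 4.54. The E2 libraries lay below, and the Enza and OSU+Enza libraries above, all vehicle libraries, while E2+Enza and OSU overlapped vehicle. IRF1 fell by 0.66 ± 0.12 on the log2 scale with E2 (limma, adjusted p = 7.76e-05), rose by 0.57 ± 0.12 with Enza (8.33e-04) and by 0.50 ± 0.12 with OSU+Enza (0.00207). In C4-2, IRF1 had 2.15, 2.56 and 2.68 CPM with vehicle, 1.53, 1.90 and 1.27 with E2, 3.97, 3.51 and 2.93 with Enza, and 3.92, 3.69 and 3.65 with OSU+Enza. The directions were those of LNCaP, at -0.53 ± 0.14 with E2 (adjusted p = 0.0245), 0.52 ± 0.14 with OSU+Enza (0.0218) and 0.42 ± 0.14 with Enza, which was not called (0.0675). Both C4-2 calls were lost without the 4 libraries that stood apart, and each without certain single libraries: vehicle 2 or 3 or E2 1 or 3 for E2, and vehicle 1 or 2 or OSU+Enza 1 or 2 for OSU+Enza. In 22Rv1, IRF1 was at 4.35, 2.84 and 3.77 CPM with vehicle, 3.49, 4.82 and 3.53 with E2 and 3.199, 4.002 and 3.36 with Enza, all overlapping (log2 changes 0.10 ± 0.14 and -0.03 ± 0.14).

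IRF9 in LNCaP went down where IRF1 went up. Its libraries had 5.59, 5.68 and 4.88 CPM with vehicle, 3.79, 4.87 and 3.997 with Enza, and 3.72, 3.71 and 3.67 with OSU+Enza. Both treated groups lay below vehicle. The log2 changes of IRF9 were -0.32 ± 0.11 with Enza (limma, adjusted p = 0.0366) and -0.48 ± 0.11 with OSU+Enza (0.00143). The Enza call was lost with no filter, with all 54 libraries in 1 fit, and without LNCaP vehicle 1 or 2 or Enza 1 or 3. JAK1, STAT2 and IRF7 had no call with any treatment in any line.

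Among the sensors, RIGI (chr9:32455302-32526196) fell with E2 in LNCaP, to 6.42, 5.52 and 6.80 CPM from 9.30, 8.91 and 8.64, without overlap. Its log2 change was -0.49 ± 0.09 (limma, adjusted p = 1.17e-04). Enza libraries had 10.6, 9.11 and 8.95 CPM of RIGI, overlapping vehicle. IFIH1 changed by -0.22 ± 0.08 with E2 in LNCaP (0.0440), a call lost with no filter, cyclic loess, voom weights and 1 fit of all libraries, and without LNCaP vehicle 2 or 3 or E2 1 or 2 (IFIH1 at -0.11 without vehicle 2). OAS3 in C4-2 rose with OSU+Enza from 36.4, 37.8 and 36.8 CPM to 42.7, 45.6 and 40.1, by 0.21 ± 0.05 (0.00984), a call lost without OSU+Enza 2. ADAR, OAS1 and, where tested, the other sensors had no other call.

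Among the effectors, PARP9 and DTX3L gave the largest called changes in 22Rv1. PARP9 (chr3:122527924-122564784) had 53.8, 55.9 and 55.9 CPM with vehicle, 44.2, 45.2 and 40.2 with Enza, and 40.6, 39.1 and 45.1 with OSU+Enza. With E2 it had 61.2, 59.6 and 62.9, with E2+Enza 63.1, 59.6 and 64.7, and with OSU 52.9, 53.4 and 55.1. Both groups with Enza and no E2 lay below all vehicle libraries, both groups with E2 lay above them, and OSU overlapped. PARP9 fell by 0.35 ± 0.05 with Enza (limma, adjusted p = 3.53e-04) and by 0.41 ± 0.05 with OSU+Enza (2.20e-05). Its rise of 0.15 ± 0.05 with E2 (0.0427) was lost with no filter, scaling to total reads or cyclic loess and without any 1 of the 6 libraries. The rise of 0.18 ± 0.05 with E2+Enza (0.0303) was lost with total reads or cyclic loess and without vehicle 1, 2 or 3 or E2+Enza 1 or 3.

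DTX3L (chr3:122564338-122575203) in 22Rv1 had 89.3, 91.9 and 99.5 CPM with vehicle, 78.8, 86.5 and 80.2 with Enza, and 78.7, 76.0 and 77.3 with OSU+Enza. Again both groups lay below vehicle. Its changes were -0.19 ± 0.05 with Enza (limma, adjusted p = 0.0484) and -0.27 ± 0.05 with OSU+Enza (8.66e-04). The Enza call was lost with no filter, the replicate block and without the 4 libraries that stood apart, and without 22Rv1 vehicle 2 or 3 or Enza 1 or 3. In LNCaP the DTX3L calls were small: -0.09 ± 0.03 with E2 (0.0461) and 0.11 ± 0.03 with Enza (0.0232). The first was lost with voom weights or 1 fit of all libraries and without vehicle 1 or 2 or any E2 library, the second with scaling to total reads and without vehicle 3 or Enza 1.

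IFIT5, an RNA-binding protein, was called in LNCaP with the same treatments and in the same directions as IRF1. It had 8.45, 9.73 and 8.86 CPM with vehicle, 6.69, 7.63 and 7.01 with E2, 10.9, 10.5 and 10.3 with Enza and 10.8, 10.7 and 10.5 with OSU+Enza. E2 lay below and both Enza groups above vehicle without overlap. The log2 changes of IFIT5 were -0.32 ± 0.08 (limma, adjusted p = 0.00246), 0.22 ± 0.08 (0.0467) and 0.23 (0.0250). The Enza call was lost with total reads, the replicate block or 1 fit of all libraries and without vehicle 1 or 3 or any Enza library, and the OSU+Enza call with 1 fit of all libraries and without vehicle 1 or 3 or OSU+Enza 1 or 2. IFI35 in LNCaP rose with Enza from 4.06, 4.38 and 4.66 CPM to 5.26, 5.67 and 5.82, by 0.32 ± 0.10 (0.0196), and with OSU+Enza by 0.31 (0.0184). The first call was lost without vehicle 1 or Enza 3, the second without vehicle 1 or OSU+Enza 3. IFI44 (0.26), IFI6 (0.25) and IFITM3 (0.13) were called higher with OSU+Enza in LNCaP, and each call was lost with all libraries in 1 fit and without LNCaP vehicle 1 or OSU+Enza 2, among others. Without vehicle 1 the change of IFI6 was 0.16 and that of IFITM3 0.07. ISG15 in 22Rv1 had 76.9, 77.8 and 84.3 CPM with vehicle and 86.8, 96.1 and 87.3 with E2, a change of 0.18 ± 0.06 (0.0332), lost with no filter, total reads or cyclic loess and without vehicle 1 or 2 or E2 2. MX1, TRIM21, IFITM1, IFITM2 and, in LNCaP, IFIT1, IFIT2 and IFIT3 were tested and not called with any treatment.

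Among the antigen presentation genes, B2M rose with E2 in LNCaP, with the smallest adjusted p of the 395 tests. B2M had 103, 114 and 107 CPM with vehicle, 163, 167 and 164 with E2, 125, 124 and 119 with E2+Enza, 105, 102 and 105 with Enza, and 103, 107 and 106 with OSU+Enza. Those with E2 stood far above all others, those with E2+Enza lay between, and the Enza groups overlapped vehicle. B2M rose by 0.61 ± 0.03 with E2 (limma, adjusted p = 5.66e-14) and by 0.18 ± 0.03 with E2+Enza (8.35e-04). The interaction, the effect of E2 in the presence of Enza minus its effect without it, was -0.37 ± 0.05 (5.69e-06), where 9.05% of all genes had a called interaction in LNCaP and B2M was the only 1 of the 30. In 22Rv1, B2M had 70.1, 71.2 and 73.8 CPM with vehicle, 79.1, 84.5 and 82.2 with E2 and 79.4, 78.0 and 84.0 with E2+Enza. Both lay above vehicle, by 0.19 ± 0.05 (0.00290) and 0.17 ± 0.05 (0.0154), of which the first was 0.13 with total reads and 0.12 with cyclic loess and the second was lost with total reads and without vehicle 1 or 2 or E2+Enza 3. In C4-2, E2 gave 80.3, 79.9 and 78.4 CPM against 71.6, 70.2 and 68.7, without overlap but not called (0.18 ± 0.06, 0.0797).

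The class I heavy chains were called in LNCaP with Enza and OSU+Enza and not with E2. HLA-B had 3.75, 4.76 and 3.59 CPM with vehicle, 6.397, 4.47 and 6.28 with Enza, 6.38, 5.97 and 7.47 with OSU+Enza and 6.22, 4.28 and 4.504 with E2. OSU+Enza lay above vehicle, while the Enza library at 4.47 and the E2 libraries at 4.28 and 4.504 lay within the range of vehicle. HLA-B rose by 0.65 ± 0.14 with OSU+Enza (limma, adjusted p = 0.00103) and by 0.45 ± 0.14 with Enza (0.0254), the latter lost with no filter or 1 fit of all libraries and without LNCaP vehicle 1 or 3 or Enza 1 or 3. HLA-C rose by 0.16 ± 0.05 with Enza (0.0325) and 0.15 with OSU+Enza (0.0348), each lost with no filter or 1 fit of all libraries. The first was also lost without vehicle 1 or 2 or Enza 1 or 3, and the second without vehicle 1 or 2 or OSU+Enza 2 or 3. TAP1 was not called in any treatment, and PSMB9, tested in LNCaP only, was not called either.

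The interaction of E2 and Enza, tested in each line after the values had been seen, called 0 genes of the list in C4-2, where 1.5% of all genes were called and 3 of the list had an unadjusted limma p under 0.05. In 22Rv1 it called PARP9 alone (0.424% of all genes), at 0.38 ± 0.08 (limma, adjusted p = 0.0173). The E2+Enza libraries of PARP9 (59.6 to 64.7 CPM) overlapped those with E2 (59.6 to 62.9 CPM). The call was lost with no filter and without vehicle 2, E2 1 or 2, or E2+Enza 1.

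**Figure D4:**
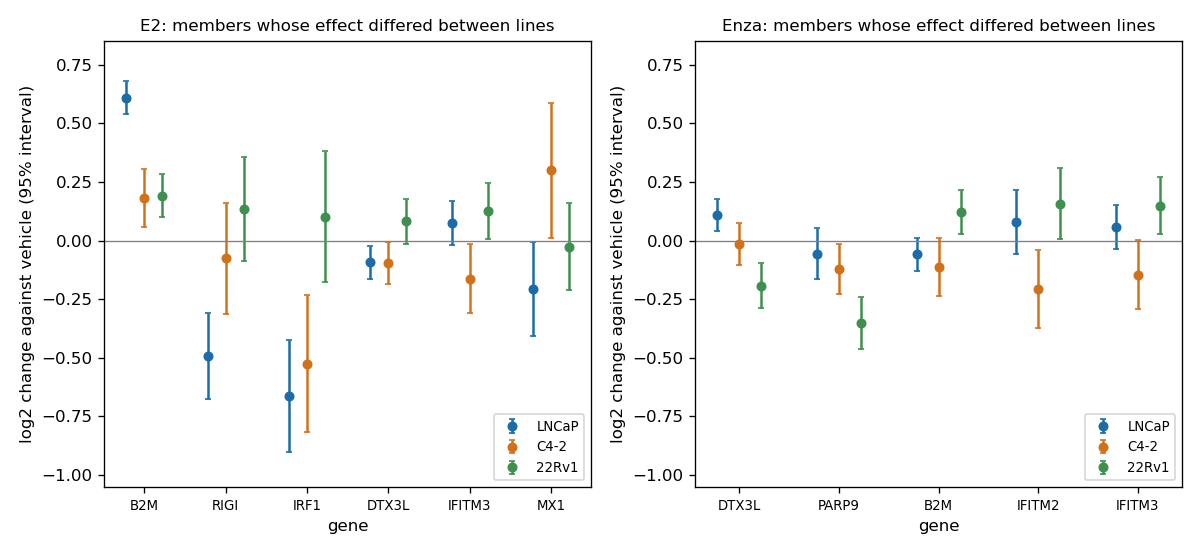
Log2 change against vehicle with its 95% interval for the genes whose E2 effect (left) or Enza effect (right) differed between the 3 lines by the F test, coloured by line. B2M with E2 is set apart by LNCaP (0.61 against 0.18 and 0.19), and PARP9 and DTX3L with Enza by 22Rv1 (-0.35 and -0.19).

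Whether responses differed between lines was tested by an F test over the 3 lines in the fit of all libraries. For E2, 6 of 31 genes differed (29.1% of all genes), for Enza 5 (13.3%), for OSU+Enza 3 (6.66%), and for OSU and E2+Enza 0 each by limma (0% and 7.9% of all genes, with 1 and 3 genes of the list at an unadjusted p under 0.05). For E2 the clearest was B2M, whose effect was lower by 0.43 ± 0.07 in C4-2 and by 0.42 in 22Rv1 than in LNCaP on the log2 scale. The IRF1 effect of E2 in 22Rv1 was 0.76 ± 0.19 above that in LNCaP and 0.63 above that in C4-2. RIGI with E2 differed by 0.62 ± 0.14 between 22Rv1 and LNCaP. For Enza, the effects in 22Rv1 minus LNCaP were -0.30 ± 0.05 for DTX3L and -0.30 ± 0.07 for PARP9, and for OSU+Enza -0.34 for both. The count for Enza fell to 3 without the 4 libraries that stood apart, and to 2 or 3 without 22Rv1 vehicle 1, 22Rv1 Enza 1 or 2, C4-2 vehicle 1 or 2 or C4-2 Enza 2.

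A wider list of the interferon pathway (receptors, kinases, further sensors, effectors and regulators; 72 genes of 83 listed were in the table) is given by its counts. Between lines, 67 were tested: 50 differed between C4-2 and LNCaP (11 higher, 39 lower, median -0.28), 59 between 22Rv1 and LNCaP (17 higher, 42 lower, median -0.45) and 58 between 22Rv1 and C4-2 (26 higher, 32 lower, median -0.15), beside the shares of all genes given above. E2 called 19 of 63 in LNCaP (10 higher, 9 lower), 1 of 60 in C4-2 and 12 of 54 in 22Rv1 (9 higher, 3 lower). The shares of all genes called with E2 were 24.9%, 5.82% and 27.7%. Of the same 63, 60 and 54 genes, Enza called 8, 4 and 1 (20.4%, 8.44% and 0.659% of all genes). E2+Enza called 3, 0 and 8 (7.42%, 0.0784% and 13.8%) and OSU+Enza 8, 3 and 2 (29.7%, 7.39% and 1.99%). OSU called 0 in each by limma (0.014%, 0% and 0%), with 0, 1 and 1 at an unadjusted p under 0.05.

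Among these, HERC5, the ligase that attaches ISG15 to proteins, was called higher with E2 in all 3 lines. HERC5 had 4.14, 3.72 and 4.597 CPM with vehicle and 8.84, 7.72 and 8.78 with E2 in LNCaP. In 22Rv1 it had 2.72, 2.34 and 3.02 CPM with vehicle and 10.7, 10.7 and 10.4 with E2. C4-2 had 2.44, 2.34 and 1.86 CPM with vehicle and 3.39, 3.90 and 3.91 with E2. No library with E2 overlapped vehicle in any line. The log2 changes were 0.94 ± 0.12, 0.65 ± 0.15 and 1.80 ± 0.14 in LNCaP, C4-2 and 22Rv1, which differed between lines (limma F test, adjusted p = 3.41e-05), and the C4-2 call was lost without C4-2 vehicle 3. HERC6, its neighbour 14021 bases away, rose by 0.42 ± 0.07 in LNCaP and 0.65 ± 0.15 in 22Rv1. PIAS1, a SUMO ligase, rose by 0.60 ± 0.04 with E2 in LNCaP, with an interaction with Enza of -0.48 ± 0.06 (1.89e-06). IFNGR1, the ligand-binding chain of the interferon gamma receptor, rose by 0.25 with E2 in LNCaP and 0.44 ± 0.08 in 22Rv1. STAT3 rose by 0.24 ± 0.03 with E2 in LNCaP and fell by 0.18 with Enza. NLRC5, the transactivator of class I genes, fell by 0.45 ± 0.10 with E2 in LNCaP.

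PARP14, a relative of PARP9 that lies 105635 bases beyond DTX3L on chromosome 3 with PARP15 between them, was also lower with Enza in 22Rv1. It had 78.1, 83.2 and 81.0 CPM with vehicle, 61.6, 61.9 and 60.4 with Enza, and 66.9, 54.9 and 64.8 with OSU+Enza, and E2 gave 82.2, 85.3 and 89.4. Both groups with Enza and no E2 lay below vehicle, and E2 overlapped it. PARP14 fell by 0.39 ± 0.06 with Enza (limma, adjusted p = 2.21e-04) and by 0.38 ± 0.06 with OSU+Enza (2.12e-04). Its vehicle level was also the most line-dependent of the 3 genes, at 6.94, 6.90 and 5.87 CPM in LNCaP and 21.5, 22.1 and 21.8 in C4-2, so that 22Rv1 stood 3.53 above LNCaP on the log2 scale.

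Summed over the 33 genes, the level was 1039.7 ± 2.60 CPM (SD, n = 3) in LNCaP vehicle, 773.1 ± 4.41 in C4-2 vehicle and 1023.5 ± 33.5 in 22Rv1 vehicle, with 729.93 to 1093.5 over all 54 libraries. The sensors, with ADAR at 318.4 to 526.1 CPM, gave 377.04 to 579.97 CPM of it, the effectors 195.33 to 360.98, the antigen presentation genes 89.205 to 213.22 and the signalling genes 32.878 to 63.426. The antigen presentation sum in LNCaP went from 154.03 ± 6.02 CPM with vehicle to 211.17 ± 1.82 with E2, while B2M alone went from a mean of 108.0 to 164.8 CPM and HLA-C from 39.2 to 38.8.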

How the data were processed

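RNA was sequenced in 54 libraries of 3 cell lines under 6 treatments (n = 3). Library preparation kept strand and used total RNA, per the labels' protocols. FastQC, Trimmomatic, featureCounts, edgeR and hg38 are named in the submitters' processing notes, with versions not given in the sources used here. The deposited table is called CPM by the labels, but its values are a score: log2 of reads plus 0.5 per 1000000 of the authors' effective library size, with every library then rescaled to a column sum of 1000000. That reading comes from the values themselves, of which 24.3 to 30.1% are negative per library. Whole reads were recovered from it for 100% of values (tolerance 0.01), and CPM is these reads over the authors' effective size. The reads in genes were 0.895 to 1.11 times that size. Between 519 and 1282 genes had 0 reads in a library.

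RefSeq GRCh38.p14 held 18917 of the 19225 gene identifiers, and 306 had no symbol. Tests used limma-trend (limma 3.58.1 under R 4.3.3) on log2(CPM + 0.5), a scale that shrinks the changes of low genes. The filter kept genes reaching 1 CPM in 3 or more of the fitted libraries, and p-values are two-sided and adjusted by Benjamini-Hochberg over all genes in the fit. The main design was planned for normalised values and was kept although whole reads could be recovered. Treatments were tested within a line (12 residual degrees of freedom) and lines in a fit of all 54 libraries (36). The 33 genes are named with values by role. Per-library values are given for many of the genes that were called or sat apart, but not for all, such as IFI44L between lines. Of the wider list, up to 4 called genes per role and comparison with the smallest p were eligible. Members and lists were chosen with earlier results of these data known. Some genes of the wider and marker lists are not reported here. Alternatives were pseudocounts of 0.1 and 1, no filter, scaling to total reads, cyclic loess, voom weights, a replicate block, other sets of libraries in the fit, and leaving out libraries. The E2 by Enza interaction and its alternatives were added after seeing the data. The scripts were tested on simulated data. No library pair within a group was a duplicate, with a chi-square per degree of freedom of 3.60 to 44.6 over 54 pairs. In the p-values, n is 3 libraries per group, and intervals cover the spread between these triplicates.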

Additional observations from a re-analysis of the deposited data

Results flagged for a closer look

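The changes below differed between the 3 lines by the F test in the fit of all libraries (limma, adjusted over all genes). They are given as log2 changes against vehicle in LNCaP, C4-2 and 22Rv1, from the fit of each line alone.

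With E2, 6 genes differed. B2M changed by 0.61, 0.18 and 0.19 (adjusted p = 1.314e-06), so that LNCaP was above both others. RIGI changed by -0.49, -0.08 and 0.13 (0.002467) and IRF1 by -0.66, -0.53 and 0.10 (0.004345). DTX3L changed by -0.09, -0.10 and 0.08 (0.01167), IFITM3 by 0.08, -0.16 and 0.13 (0.02029) and MX1 by -0.21, 0.30 and -0.03 (0.02839). IFITM3 and MX1 were not called with E2 in any single line.

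With Enza, 5 genes differed. DTX3L changed by 0.11, -0.01 and -0.19 (adjusted p = 0.0003479, limma), PARP9 by -0.06, -0.12 and -0.35 (0.0103), B2M by -0.06, -0.11 and 0.12 (0.03166), IFITM2 by 0.08, -0.21 and 0.16 (0.0333) and IFITM3 by 0.06, -0.15 and 0.15 (0.041). Of these, B2M, IFITM2 and IFITM3 were not called with Enza in any single line.

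With OSU+Enza, 3 genes differed. DTX3L changed by 0.07, 0.00 and -0.27 (adjusted p = 1.606e-05, limma), PARP9 by -0.06, -0.13 and -0.41 (0.002346) and IFITM3 by 0.13, -0.16 and 0.13 (0.03312).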

How the results depend on the processing

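Over 26 counts of called genes and 229 alternatives other than single libraries left out, 204 counts stayed within 1.5 times and 14 counts moved in no alternative. The E2 effect between lines went from 6 to 3 with cyclic loess, and the Enza effect between lines from 5 to 3 without the 4 libraries that stood apart. In LNCaP, Enza went from 7 to 4 with no filter and 3 in 1 fit of all 54 libraries, and OSU+Enza from 9 to 4 in that fit. In C4-2, E2 went from 1 to 2 with no filter, total reads, cyclic loess, the replicate block and 1 fit of all 54 libraries, and to 0 without the 4 libraries. Enza in C4-2 went from 0 to 3 with total reads, 1 with cyclic loess and 2 in 1 fit of all 54 libraries, and OSU+Enza from 2 to 1 without the 4 libraries. In 22Rv1, E2 went from 3 to 1 with no filter, total reads or cyclic loess and to 5 without the 4 libraries. Enza there went from 2 to 1 with no filter, the replicate block or without the 4 libraries, E2+Enza from 2 to 0 with total reads and 1 with cyclic loess, and the interaction from 1 to 0 with no filter. STAT2 between 22Rv1 and LNCaP turned from -0.12 to 0.00308 with total reads. The causes were not tested.

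With 1 library left out at a time, the counts ranged from 22 to 23 (C4-2 against LNCaP), 27 to 29 (22Rv1 against LNCaP), 20 to 22 (22Rv1 against C4-2), 4 to 8 (E2 between lines), 2 to 7 (Enza between lines), 0 to 1 (E2+Enza between lines) and 2 to 4 (OSU+Enza between lines). In LNCaP they ranged from 4 to 7 (E2), 2 to 6 (Enza) and 3 to 8 (OSU+Enza). In C4-2 they ranged from 0 to 1 (E2) and 0 to 2 (OSU+Enza), and in 22Rv1 from 1 to 3 (E2), 1 to 2 (Enza), 0 to 2 (E2+Enza) and 0 to 2 (interaction). The counts of OSU were 0 in each line throughout, and that of OSU+Enza in 22Rv1 was 2.

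Libraries moving a count by over 1.5 times were LNCaP vehicle 1, Enza 1 or Enza 3 (Enza to 2), vehicle 3 (Enza to 4), vehicle 1 (OSU+Enza to 3) and OSU+Enza 2 (to 4), C4-2 E2+Enza 3 (E2+Enza between lines to 1), 22Rv1 Enza 3 or E2+Enza 3 (interaction to 2), and those named beside the calls in the text. Pairing by replicate number was not shown: 0 of 15 group pairs had every same-number correlation over 0.1 (range -0.181 to 0.219). A rule that every correlation must meet cannot exclude pairing, and LNCaP OSU with vehicle had 0.188, -0.00592 and 0.219. The replicate block changed only the counts named above by over 1.5 times.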

Other observations

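2 further genes of the wider list were near-absent in 1 or more lines. IFNLR1, the specific chain of the type III interferon receptor, had 0 reads in all LNCaP and C4-2 vehicle libraries and 9.09, 8.04 and 9.67 CPM in 22Rv1. SAMD9, an antiviral effector, had 0 reads in the 22Rv1 vehicle libraries and means of 5.81 CPM in LNCaP and 0.960 CPM in C4-2. A count of 0 allows a level of up to 3 reads, which is 0.0611 to 0.0968 CPM. Both were picked after their values were seen.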
